A study of Mus musculus with 11 samples.

Results

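The 10 genes Tcf7, Lef1, Satb1, Foxo1, Foxp1, Bach2, Klf2, Klf3, Id3 and Myb encode transcription factors that keep T cells quiescent, naive or stem-like. They were taken by gene name from the 46078 genes of the deposited count table, where each name matched 1 gene, and all 10 passed the filter on low counts. RNA was sequenced from T cells sorted out of the kidneys of wild-type mice that had been immunised with the autoantigen myeloperoxidase (MPO, recombinant, mouse); a low-dose sheep globulin that binds the basement membrane of mice then set off glomerulonephritis. All 4 populations came from such mice, 21 days after. There were 2 libraries of CD4+CD127-PD-1+ cells (another did not pass quality control, per the labels), 3 of CD4+CD127+PD-1- cells, 3 of CD8+CD127-PD-1+ cells and 3 of CD8+CD127+PD-1- cells. Each sort pooled 3 mice, so libraries differ as pools do and say nothing of single animals. No uninjured kidney, blood or lymph node population was analysed here, and the sources used here do not give strain, sex or age. CD127 is the alpha chain of the IL-7 receptor, which resting T cells need for survival, and PD-1 is an inhibitory receptor of stimulated T cells.

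A naive or memory T cell is held out of the cell cycle by an active programme of transcription. FOXO1 works in the nucleus while signalling through the kinase AKT is low, and it maintains the genes for CD127 and KLF2; KLF2 in turn maintains the egress receptor S1PR1. TCF-1 (the product of Tcf7) and LEF-1 hold naive and stem-like identity, while BACH2, FOXP1, KLF3 and ID3 restrain effector genes or the factors that drive them.

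The sort could be read back in the counts. Values are normalised read counts (CPM, reads of a gene relative to the library's total, with totals scaled between libraries by the trimmed mean of M values). Il7r, the gene of CD127, averaged 21.4 CPM in CD4+CD127-PD-1+ libraries, against 385 CPM in CD4+CD127+PD-1- libraries, and 16.1 CPM in CD8+CD127-PD-1+ libraries against 367 CPM in CD8+CD127+PD-1- libraries. Pdcd1, the gene of PD-1, averaged 19.2 CPM in CD4+CD127-PD-1+ libraries, against 1.82 CPM in CD4+CD127+PD-1- libraries, and 22.4 CPM in CD8+CD127-PD-1+ libraries, against 2.14 CPM in CD8+CD127+PD-1- libraries. Cd4 averaged 634 CPM in CD4+CD127-PD-1+ libraries against 4.88 CPM in CD8+CD127-PD-1+ libraries, and Cd8a averaged 0.403 CPM against 585 CPM in the same groups. In the CD127+PD-1- populations, Cd4 averaged 554 CPM in CD4 libraries and 6.54 CPM in CD8 libraries, and Cd8a 1.09 and 575 CPM. The 10 pan-T genes (the CD3 chains, Trac, Trbc2, Lck, Lat, Cd2 and Cd5) had log2 fold changes of -0.31 to 0.45 between the sorted states of CD4 cells and of -0.48 to 0.09 between those of CD8 cells. A gene is called, and written of as higher or lower, at an adjusted p under 0.05. Libraries held 10572505 to 16057310 reads in genes, of which the 2 mitochondrial ribosomal RNAs took 35.7% to 40.8% in CD8+CD127-PD-1+ libraries, against 28.1% to 31.8% in the other groups. Other mitochondrial genes took 2.85% to 4.03% in CD8+CD127-PD-1+ libraries, against 1.62% to 2.16% in the other groups. This share thus moves with the CD8 state comparison; with the 2 ribosomal RNAs left out of the counts all 10 factors were still called lower in CD8+CD127-PD-1+ cells.

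Genes of other cells were present in every group, and some of these lists moved with the sort. The summed level of 12 macrophage markers was 1207 to 2558 CPM in CD4+CD127-PD-1+ libraries and 51.5 to 116 CPM in CD4+CD127+PD-1- libraries, and 1183 to 2319 CPM in CD8+CD127-PD-1+ libraries against 61.1 to 124 CPM in CD8+CD127+PD-1- libraries; 12 of 12 were called higher in both. The summed level of 12 plasmacytoid dendritic cell markers went the other way. It was 458 to 653 CPM in CD4+CD127-PD-1+ libraries against 1066 to 2143 CPM in CD4+CD127+PD-1- libraries. In CD8 cells it was 459 to 540 CPM in CD127-PD-1+ libraries against 836 to 1675 CPM in CD127+PD-1- libraries. Of the 12, 8 were called lower in CD4 and 6 in CD8 cells. Siglech, which defines that cell type, averaged 19.0 CPM in CD4+CD127-PD-1+ libraries and 274 CPM in CD4+CD127+PD-1- libraries. In CD4 cells 11 of these markers had negative log2 fold changes and 1, Klk1, a positive one. Klk1 averaged 89.4 CPM (12 to 167) in CD4+CD127-PD-1+ libraries against 31.8 CPM in CD4+CD127+PD-1- libraries. Over all genes tested, 4.87% were called lower and 6.81% higher in CD4 cells, and 6.56% and 9.05% in CD8 cells. The summed level of 17 cell cycle genes was 1284 to 2265 CPM in CD4+CD127-PD-1+ libraries and 466 to 625 CPM in CD4+CD127+PD-1- libraries, and 1660 to 2237 CPM in CD8+CD127-PD-1+ libraries against 595 to 1702 CPM in CD8+CD127+PD-1- libraries; 14 and 5 of 17 were called higher. B and plasma cell markers, 10 genes, summed to 174 to 389 CPM in CD4+CD127-PD-1+ libraries, against 271 to 408 CPM in CD4+CD127+PD-1- libraries, at log2 fold changes of -1.27 to 1.00, and to 417 to 720 CPM in CD8+CD127-PD-1+ against 246 to 411 CPM in CD8+CD127+PD-1- libraries, with 4 called higher. Neutrophil markers summed to 26.3 to 40.6 CPM in CD4+CD127-PD-1+ libraries, against 4.22 to 6.23 CPM in CD4+CD127+PD-1- libraries, and to 48.9 to 341 CPM in CD8+CD127-PD-1+ libraries, against 3.19 to 26.2 CPM in CD8+CD127+PD-1- libraries, with 1 and 7 called higher. Kidney tubule markers, 10 genes, summed to 34.9 to 53.1 CPM in CD4+CD127-PD-1+ and 49.6 to 136 CPM in CD4+CD127+PD-1- libraries. In CD8 cells they summed to 17.2 to 62.7 CPM in CD127-PD-1+ and 12.4 to 259 CPM in CD127+PD-1- libraries, with 0 called in either lineage. The 10 NK and innate lymphoid markers had 0 called in CD4 cells and 2 called higher in CD8 cells. None of the 12 macrophage or 12 plasmacytoid dendritic cell markers was at 0 in any group. The part of these cells in the results below was not tested, and in bulk samples fewer cells of a type and less RNA per cell cannot be told apart.

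The promoters of the factors were read for motifs of the factors themselves, because several of these factors are known to act on one another's genes. RefSeq windows of 300 bases (GRCm38.p6, 250 before to 50 after an annotated start) covered all 10 genes in 20 windows. On both strands, the FOXO motif GTAAACA occurred in windows of 2 of the 10 genes, Tcf7 and Myb, and in 4.05% of the 26994 genes with a window. The TCF/LEF motif, searched as CTTTG and any pair of the weak bases (adenine or thymine) after it, occurred in 4 of 10 (Lef1, Satb1, Foxp1 and Myb) and in 19% of all genes. Shorter motifs were common everywhere: the KLF core CACCC was found in 8 of 10 and in 59.8% of all genes, the MYB core AACNG in 8 of 10 and in 82.4%, and the E box CANNTG, the site of the E proteins that ID3 blocks, in 7 of 10 and in 75%. The factors have more windows per gene than genes at large, since all genes together have 32817 windows. Per window, the FOXO motif was in 2 of 20 against 3.65% of all windows, TCF/LEF in 6 of 20 against 16.9%, the KLF core in 16 of 20 against 57.5%, the MYB core in 16 of 20 against 80.3%, and the E box in 16 of 20 against 72.3%. On the opposite strand the FOXO motif can share letters with the TCF/LEF motif, and no other overlap was looked for. A match is a run of letters and not a site shown to be bound. The 5 windows below are 1 for each gene that holds a FOXO or TCF/LEF match (the first listed where a gene has several), given 5′ to 3′ on the gene's strand, with those matches, on either strand, in capitals.
Tcf7, chr11:52282546-52282845, minus strand: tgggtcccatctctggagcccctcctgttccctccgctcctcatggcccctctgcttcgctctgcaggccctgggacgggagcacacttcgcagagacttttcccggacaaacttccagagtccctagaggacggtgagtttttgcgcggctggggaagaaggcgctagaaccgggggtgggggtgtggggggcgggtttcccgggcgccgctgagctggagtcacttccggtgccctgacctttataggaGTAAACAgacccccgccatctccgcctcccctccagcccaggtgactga
Lef1, chr3:131156044-131156343, plus strand: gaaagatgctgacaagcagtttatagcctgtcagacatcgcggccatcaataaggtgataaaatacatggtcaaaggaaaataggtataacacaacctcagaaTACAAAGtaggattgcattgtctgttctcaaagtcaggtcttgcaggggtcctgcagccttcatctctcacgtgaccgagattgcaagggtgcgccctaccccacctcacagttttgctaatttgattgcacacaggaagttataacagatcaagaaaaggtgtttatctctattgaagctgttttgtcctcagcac
Satb1, chr17:51812135-51812434, minus strand: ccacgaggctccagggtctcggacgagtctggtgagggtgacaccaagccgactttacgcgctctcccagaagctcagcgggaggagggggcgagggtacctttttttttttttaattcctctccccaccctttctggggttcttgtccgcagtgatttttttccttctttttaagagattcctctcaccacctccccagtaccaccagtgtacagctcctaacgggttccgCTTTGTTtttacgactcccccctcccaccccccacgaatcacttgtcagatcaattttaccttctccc
Foxp1, chr6:99520944-99521243, minus strand: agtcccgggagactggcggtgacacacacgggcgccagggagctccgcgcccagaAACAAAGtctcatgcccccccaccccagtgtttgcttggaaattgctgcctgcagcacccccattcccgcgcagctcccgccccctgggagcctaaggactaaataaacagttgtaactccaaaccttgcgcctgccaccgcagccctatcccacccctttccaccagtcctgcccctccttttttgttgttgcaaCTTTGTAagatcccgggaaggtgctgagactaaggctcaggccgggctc
Myb, chr10:21160935-21161234, minus strand: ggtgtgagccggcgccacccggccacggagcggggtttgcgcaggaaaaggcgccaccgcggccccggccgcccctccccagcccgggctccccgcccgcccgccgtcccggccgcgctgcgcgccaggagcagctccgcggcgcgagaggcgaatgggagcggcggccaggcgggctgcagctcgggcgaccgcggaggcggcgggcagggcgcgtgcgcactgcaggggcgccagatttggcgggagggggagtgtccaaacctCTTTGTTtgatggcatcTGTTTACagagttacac

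The Tcf7 window lies at a start downstream of the first annotated start, the Lef1 and Satb1 windows at starts inside their genes, and the Foxp1 and Myb windows near the 5′ ends. Only the Myb window held both motifs. The windows of Foxo1, Bach2, Klf2, Klf3 and Id3 held neither.

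In CD4 cells, 9 of the 10 factors were lower in CD127-PD-1+ than in CD127+PD-1- cells and none was higher. The fold reduction ran from 1.74-fold for Foxo1 to 5.62-fold for Lef1, and 8 of the 9 were reduced by more than 2-fold. Only Myb stayed outside the call. Over all 16365 genes tested, 4.87% were called lower and 6.81% higher in this comparison. The median log2 fold change of the 10 factors was -1.52, against 0.02 for all genes tested. In CD8 cells, 10 of 10 were lower in CD127-PD-1+ cells, where 6.56% of all genes tested were called lower and 9.05% higher, and the median log2 fold change was -1.28, against 0.01. The values of the 2 sorted states did not overlap for 9 of 10 factors in CD4 cells and for 10 of 10 in CD8 cells; 19.4% and 16.4% of all genes tested lay apart in that direction. P-values are from edgeR's quasi-likelihood test on all 11 libraries, adjusted by the Benjamini-Hochberg method over all genes tested.

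**Figure D1:**
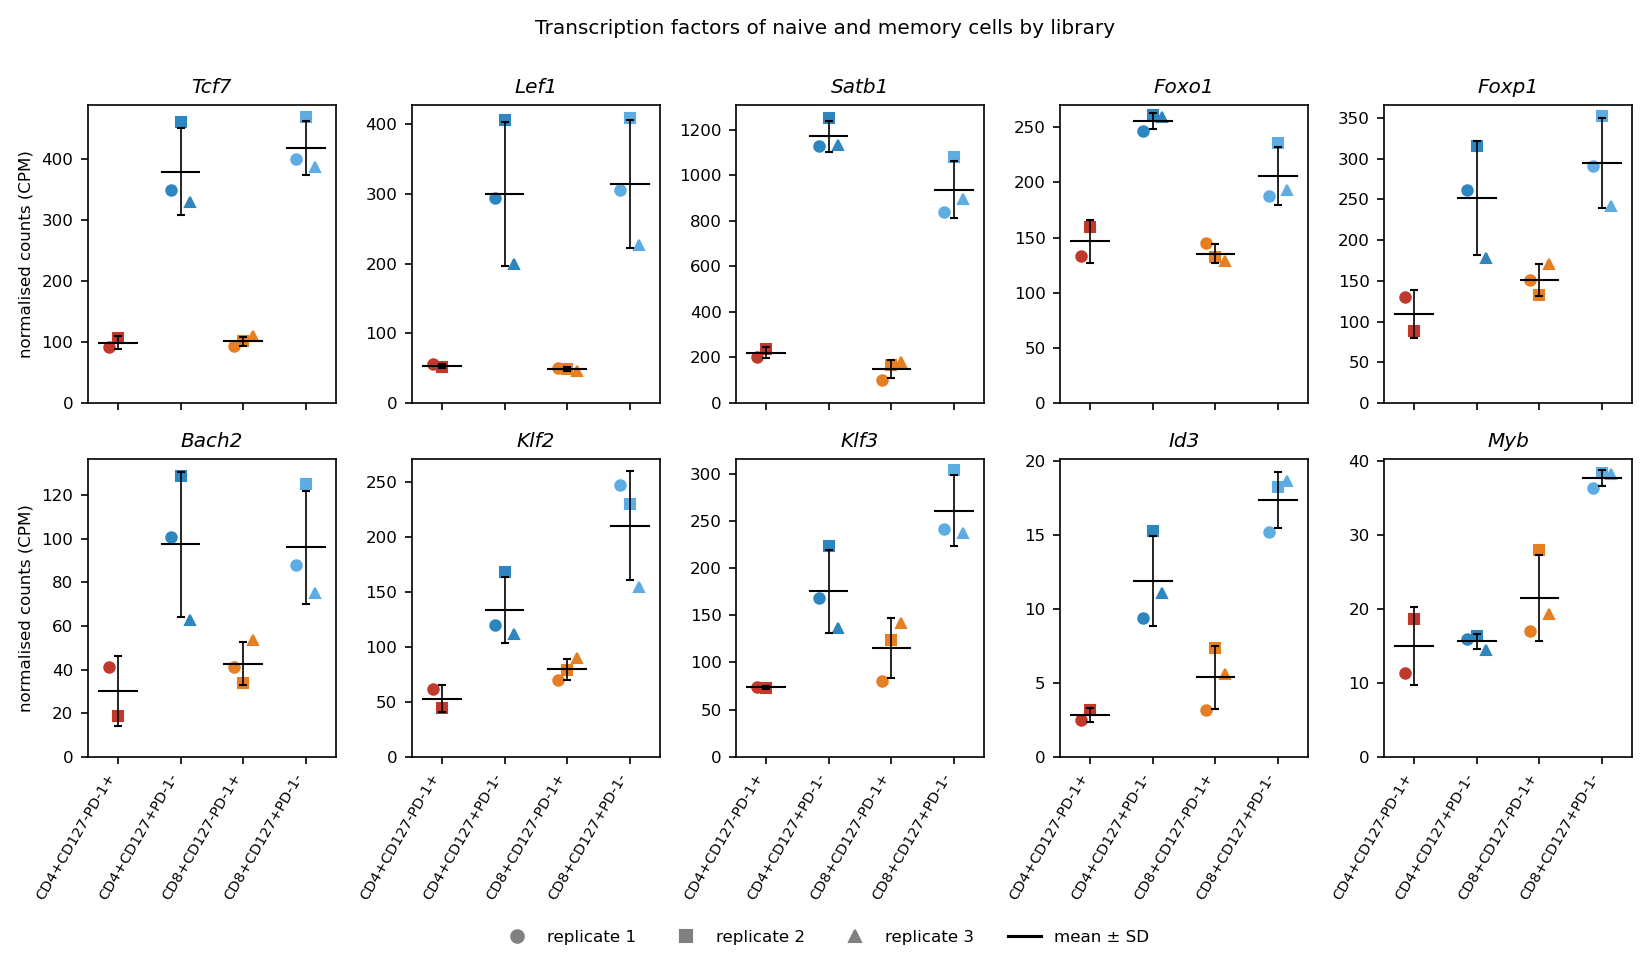
Normalised read counts (CPM, linear axes from 0) of the 10 factors in each library, with the mean and SD of each sorted group as black lines. In CD8 cells the CD127-PD-1+ libraries (left of each pair) lay below the CD127+PD-1- libraries for 10 of 10 genes, and in CD4 cells for 9 of 10, with Myb the exception.

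Tcf7 (chr11:52252371-52283014, minus strand, GRCm38) and Lef1 (chr3:131110471-131224356, plus strand, GRCm38) encode the HMG-box factors TCF-1 and LEF-1, which bind the same motif. Tcf7 had 91.2 and 106 CPM in CD4+CD127-PD-1+ libraries, against 349, 460 and 329 CPM in CD4+CD127+PD-1- libraries. In CD8 cells it had 93.8, 101 and 109 CPM in CD127-PD-1+ libraries, against 400, 469 and 386 CPM in CD127+PD-1- libraries. All CD127-PD-1+ libraries lay below all CD127+PD-1- libraries in both lineages, and Tcf7 changed on the log2 scale by -1.95 in CD4 cells (SE 0.165, adjusted p = 0.000122) and by -2.05 in CD8 cells (SE 0.142, adjusted p = 2.12e-05). Lef1 had 55.5 and 51.1 CPM in CD4+CD127-PD-1+ libraries, against 294, 406 and 199 CPM in CD4+CD127+PD-1- libraries. It had 50.6, 49.3 and 46.1 CPM in CD8+CD127-PD-1+ libraries, against 306, 409 and 226 CPM in CD8+CD127+PD-1- libraries. The CD127-PD-1+ libraries of both lineages sat close together, while the CD127+PD-1- libraries spread widely and in both lineages were highest in replicate 2 and lowest in replicate 3. Lef1 changed by -2.49 on the log2 scale in CD4 cells (SE 0.297, adjusted p = 0.000572) and by -2.69 in CD8 cells (SE 0.256, adjusted p = 0.000119). Few genes had more negative fold changes: 1.52% of all genes tested lay below Lef1 in CD4 cells and 1.2% in CD8 cells, and 2.47% and 2.12% lay below Tcf7.

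Satb1 (chr17:51736187-51833290, minus strand, GRCm38) encodes a chromatin organiser that is abundant in thymocytes and naive T cells. Its CPM were 203 and 239 in CD4+CD127-PD-1+ libraries, against 1130, 1250 and 1133 in CD4+CD127+PD-1- libraries, and 103, 166 and 178 in CD8+CD127-PD-1+ libraries, against 838, 1079 and 894 in CD8+CD127+PD-1- libraries. All CD127-PD-1+ libraries were low and well apart from the CD127+PD-1- libraries. The log2 fold change was -2.41 in CD4 cells (SE 0.218, adjusted p = 0.000122) and -2.65 in CD8 cells (SE 0.189, adjusted p = 2.3e-05), and 1.63% and 1.28% of all genes tested lay below it.

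Foxo1 (chr3:52268336-52353221, plus strand, GRCm38) and Foxp1 (chr6:98925338-99522721, minus strand, GRCm38) encode forkhead factors, of which FOXO1 activates and FOXP1 opposes the expression of Il7r in naive T cells. Foxo1 had 133 and 160 CPM in CD4+CD127-PD-1+ libraries, against 247, 261 and 259 CPM in CD4+CD127+PD-1- libraries, and 145, 132 and 129 CPM in CD8+CD127-PD-1+ libraries, against 188, 236 and 193 CPM in CD8+CD127+PD-1- libraries. The groups did not overlap, and the reductions were modest, with log2 fold changes of -0.80 in CD4 cells (SE 0.128, adjusted p = 0.00276) and -0.60 in CD8 cells (SE 0.113, adjusted p = 0.00416). For Foxp1 the CPM were 130 and 88.6 in CD4+CD127-PD-1+ libraries, against 261, 316 and 178 in CD4+CD127+PD-1- libraries, and 151, 132 and 171 in CD8+CD127-PD-1+ libraries, against 291, 352 and 242 in CD8+CD127+PD-1- libraries. Replicate 3 of CD4+CD127+PD-1- cells lay nearest to the CD127-PD-1+ libraries, without overlap. Foxp1 changed by -1.20 (SE 0.251, adjusted p = 0.0107) in CD4 cells and by -0.96 (SE 0.217, adjusted p = 0.0116) in CD8 cells. Its adjusted p was 0.087 without CD4+CD127-PD-1+ replicate 2, 0.0524 without CD8+CD127-PD-1+ replicate 2 and 0.0507 without CD8+CD127+PD-1- replicate 2.

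Bach2 (chr4:32238804-32586108, plus strand, GRCm38) encodes a repressor that pairs with small MAF proteins and restrains effector differentiation. It had 41.4 and 18.7 CPM in CD4+CD127-PD-1+ libraries, against 101, 129 and 62.8 CPM in CD4+CD127+PD-1- libraries. In CD8 cells it had 41.1, 33.8 and 53.5 CPM in CD127-PD-1+ libraries, against 88.0, 125 and 75.3 CPM in CD127+PD-1- libraries. The groups lay apart, but Bach2 had the widest spread of the 10 factors within each CD4 group: its highest library was 2.21 times its lowest in CD4+CD127-PD-1+ cells and 2.06 times in CD4+CD127+PD-1- cells. The log2 fold change was -1.71 in CD4 cells (SE 0.381, adjusted p = 0.0148) and -1.17 in CD8 cells (SE 0.324, adjusted p = 0.0306). In CD4 cells the adjusted p was 0.0975 without CD4+CD127-PD-1+ replicate 2 and 0.0528 without CD4+CD127+PD-1- replicate 2. In CD8 cells it was 0.0814 and 0.114 on leaving out replicate 1 or replicate 2 of CD8+CD127-PD-1+ cells, and 0.0547 and 0.122 on leaving out replicate 1 or 2 of CD8+CD127+PD-1- cells.

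Klf2 (chr8:72319033-72321656, plus strand, GRCm38) and Klf3 (chr5:64803388-64832901, plus strand, GRCm38) encode zinc finger factors of the Krüppel-like family; KLF2 activates S1pr1, and KLF3 recruits CtBP corepressors. Klf2 had 61.4 and 44.3 CPM in CD4+CD127-PD-1+ libraries, against 120, 168 and 112 CPM in CD4+CD127+PD-1- libraries, and 69.9, 79.2 and 89.4 CPM in CD8+CD127-PD-1+ libraries, against 247, 230 and 154 CPM in CD8+CD127+PD-1- libraries. The states did not overlap in either lineage, and the log2 fold changes were -1.34 in CD4 cells (SE 0.241, adjusted p = 0.00558) and -1.40 in CD8 cells (SE 0.209, adjusted p = 0.00111). Endothelial cells also express Klf2, and the 10 endothelial markers summed to 103 to 109 CPM in CD4+CD127-PD-1+ libraries and 166 to 191 CPM in CD4+CD127+PD-1- libraries, and to 63.9 to 87.9 CPM in CD8+CD127-PD-1+ against 122 to 145 CPM in CD8+CD127+PD-1- libraries; of the 6 tested, 2 and 3 were called lower and 1 and 0 higher. The untested markers did not pass the filter on low counts. Of the 6, 4 had negative and 2 had positive log2 fold changes in either lineage. These spanned -3.25 to 2.11 for CD4 and -3.38 to 1.38 for CD8, so the sum does not stand for each marker. The sum rested mostly on Pecam1 and Ehd3. Pecam1 averaged 60.4 CPM in CD4+CD127-PD-1+ against 126 CPM in CD4+CD127+PD-1- libraries. In CD8 cells it averaged 34 CPM in CD127-PD-1+ against 71.2 CPM in CD127+PD-1- libraries. Ehd3 averaged 37.3 against 37.7 CPM for CD4 and 33.2 against 46.1 CPM for CD8, in the same order. The part of endothelial cells in the Klf2 values was not tested. Klf3 had 74.3 and 72.7 CPM in CD4+CD127-PD-1+ libraries, against 168, 223 and 136 CPM in CD4+CD127+PD-1- libraries, and 80.4, 124 and 142 CPM in CD8+CD127-PD-1+ libraries, against 241, 304 and 237 CPM in CD8+CD127+PD-1- libraries. CD127-PD-1+ libraries were again the low ones throughout. Klf3 changed by -1.26 (SE 0.249, adjusted p = 0.00844) in CD4 cells and by -1.17 (SE 0.215, adjusted p = 0.00383) in CD8 cells. Without CD4+CD127-PD-1+ replicate 1 or replicate 2 its adjusted p in CD4 cells was 0.0506 and 0.0508; there the lone remaining library was assumed to vary like the other groups.

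Id3 (chr4:136143497-136145755, plus strand, GRCm38) encodes an inhibitor without a DNA-binding domain that captures E proteins. Among the 10 factors it was the one with the fewest reads in CD127-PD-1+ cells: 86 over the 2 CD4+CD127-PD-1+ libraries and 431 over the 3 CD4+CD127+PD-1- libraries, and 217 in CD8+CD127-PD-1+ cells against 746 in CD8+CD127+PD-1- cells. Its CPM were 2.49 and 3.18 in CD4+CD127-PD-1+ libraries, against 9.37, 15.3 and 11.1 in CD4+CD127+PD-1- libraries, and 3.14, 7.39 and 5.58 in CD8+CD127-PD-1+ libraries, against 15.2, 18.3 and 18.7 in CD8+CD127+PD-1- libraries. No library of a CD127-PD-1+ group reached the lowest CD127+PD-1- library of its lineage. The log2 fold change was -2.07 in CD4 cells (SE 0.349, adjusted p = 0.00391) and -1.70 in CD8 cells (SE 0.288, adjusted p = 0.00236).

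Myb (chr10:21124935-21160984, minus strand, GRCm38) encodes a factor needed in thymocytes and in stem-like CD8 T cells, and it was the exception. It had 11.3 and 18.7 CPM in CD4+CD127-PD-1+ libraries, against 16, 16.4 and 14.5 CPM in CD4+CD127+PD-1- libraries, so the CD4 groups overlapped. In CD8 cells it had 17.0, 28 and 19.3 CPM in CD127-PD-1+ libraries, against 36.4, 38.4 and 38.3 CPM in CD127+PD-1- libraries, with no overlap. The log2 fold change was -0.06 in CD4 cells (SE 0.238, adjusted p = 0.908) and -0.81 in CD8 cells (SE 0.209, adjusted p = 0.0218). The call in CD8 cells was lost without CD8+CD127-PD-1+ replicate 1 (adjusted p = 0.0733) or replicate 3 (adjusted p = 0.0874) and without CD8+CD127+PD-1- replicate 2 (adjusted p = 0.0623). The difference between the CD4 and the CD8 change was 0.75 on the log2 scale (SE 0.315, unadjusted p = 0.0352, adjusted p = 0.878), so a difference between the lineages did not pass the threshold.

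**Figure D2:**
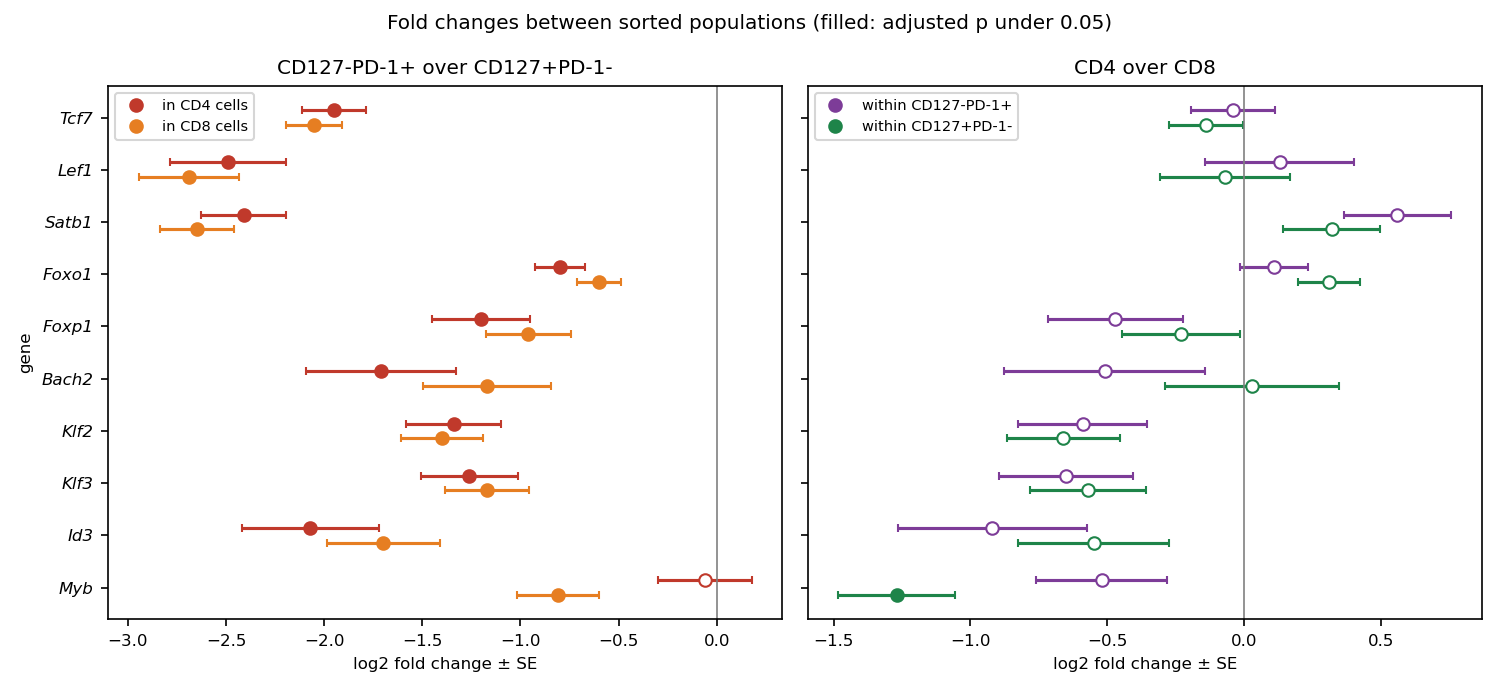
Log2 fold changes with standard errors of the 10 factors; filled points passed an adjusted p of 0.05. The left panel (CD127-PD-1+ over CD127+PD-1-) has filled points below 0 for every gene except Myb in CD4 cells, and the right panel (CD4 over CD8) has 1 filled point, Myb within CD127+PD-1- cells.

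The change between the sorted states was also compared between the lineages. None of the 10 factors was called by edgeR, DESeq2 or limma-voom for a difference between the CD4 and the CD8 state change, and 1 (Myb) had an unadjusted p under 0.05 by each. Among all 16365 genes edgeR called 1 higher (0.00611%) and 0 lower, with 897 at an unadjusted p under 0.05, DESeq2 called 60 and limma-voom 1. The estimates, CD4 change minus CD8 change, ran from -0.54 for Bach2 (SE 0.485) to 0.75 for Myb. Both values rest on the CD4+CD127-PD-1+ libraries: without replicate 1 they were -1.22 and 1.07, and without replicate 2 they were -0.07 and 0.35. The standard errors, 0.168 for Foxo1 to 0.485 for Bach2, set how small a difference could be seen. A p that misses the threshold does not show that the lineages changed alike.

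The lineages were compared within each state as CD4 over CD8, and edgeR called 1 factor, Myb. Within CD127-PD-1+ cells none of the 10 was called by edgeR, DESeq2 or limma-voom, although 4, 5 and 4 had an unadjusted p under 0.05. By edgeR, 1.6% of all genes tested were called higher and 0.843% lower in CD4 cells, 2.44% in all. Satb1 stood highest, with a log2 fold change of 0.56 (SE 0.197, adjusted p = 0.221), and Id3 lowest at -0.92 (SE 0.345, adjusted p = 0.262). For 5 factors the libraries did not overlap between the lineages there: Lef1 and Satb1 with CD4 libraries above and Foxp1, Klf2 and Klf3 with CD4 libraries below, against 14.3% and 13.5% of all genes tested. Within CD127+PD-1- cells Myb was lower in CD4 cells, at 15.6 ± 1.01 CPM in CD4 and 37.7 ± 1.15 CPM in CD8 libraries (SD, n = 3 each), a log2 fold change of -1.27 (SE 0.213, adjusted p = 0.00522). No other factor was called by edgeR there, against 2.76% of all genes tested called higher and 1.66% lower, 4.42% in all. Klf2 was next, at 133 ± 30.2 CPM in CD4 and 211 ± 49.6 CPM in CD8 libraries (SD, n = 3 each), with a log2 fold change of -0.66 (SE 0.206, adjusted p = 0.107). Other settings called it: DESeq2 (adjusted p = 0.044), which called 1192 genes there against 723 by edgeR and 646 by limma-voom, edgeR with no filter on low counts (adjusted p = 0.0103, with Klf3 at 0.0374), and edgeR without CD8+CD127+PD-1- replicate 3 (-0.84, adjusted p = 0.0336). Same-numbered CD4 and CD8 libraries of this state deviated together, with correlations of 0.208, 0.147 and 0.318, and edgeR with the replicate number as a block gave Klf2 an adjusted p of 0.0306 by the numbers in the descriptions and of 0.118 by those in the titles. The libraries of Myb and Klf3 lay apart with CD4 below and those of Satb1 and Foxo1 with CD4 above, where 10.9% and 11.9% of all genes tested did. Whether CD4 and CD8 cells came from the same pools of mice is not stated in the sources used here.

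The order of the factors by abundance shifted between the states. Levels of different genes are compared per kilobase of all annotated exon sequence, which understates a gene that uses few of its exons. In CD127+PD-1- cells Tcf7 led, at 145 ± 26.9 CPM per kb in CD4 and 159 ± 17.0 CPM per kb in CD8 libraries (SD, n = 3 each), followed by Klf2 at 72.2 ± 16.4 and 114 ± 26.9 and Satb1 at 61.5 ± 3.61 and 49.2 ± 6.62 CPM per kb in the CD4 and CD8 groups. Lef1 came next in both. In CD127-PD-1+ cells Tcf7 and Klf2 were still the top pair, Tcf7 at 37.5 ± 3.93 CPM per kb (SD, n = 2) and Klf2 at 28.6 ± 6.54 in CD4 libraries, and Klf2 at 43.0 ± 5.29 and Tcf7 at 38.5 ± 2.93 CPM per kb (SD, n = 3) in CD8 libraries, where their ranges overlapped. Foxo1, the factor with the smallest called reduction, came after them in both CD127-PD-1+ groups at 16.9 ± 2.22 CPM per kb in CD4 and 15.6 ± 0.989 CPM per kb in CD8 libraries. Satb1 held place 4 in CD4+CD127-PD-1+ cells and place 6 in CD8+CD127-PD-1+ cells, and Lef1 place 7 in both. Id3, Bach2 and Myb held the last 3 places in every group, between 1.58 CPM per kb for Id3 in CD4+CD127-PD-1+ cells and 9.84 CPM per kb for Bach2 in CD4+CD127+PD-1- cells. Neighbours whose libraries overlapped in CD8+CD127-PD-1+ cells were Klf2 with Tcf7 and each neighbouring pair from Foxp1 down to Myb. In CD8+CD127+PD-1- cells the overlaps were the neighbouring pairs from Satb1 down to Foxp1, and Id3 with Bach2. Overlap in CD4+CD127+PD-1- cells joined Klf2 with Satb1, Lef1 with Foxo1 and the neighbouring pairs from Foxp1 down to Id3, and in CD4+CD127-PD-1+ cells Foxp1 with Klf3 and the pairs from Bach2 down to Id3.

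Within both CD127+PD-1- groups most factors deviated from the group mean in the same libraries. Replicate 2 lay above the mean of its group for 10 of 10 factors in CD4+CD127+PD-1- cells (median deviation 0.36 on the log2 scale) and for 10 of 10 in CD8+CD127+PD-1- cells (median 0.21). Replicate 3 lay below for 9 of 10 (median -0.21) and 8 of 10 (median -0.12). The summed level of 20 effector-associated factors ran the other way: it was 2644, 2071 and 2961 CPM in replicates 1, 2 and 3 of CD4+CD127+PD-1- cells and 2111, 1724 and 2190 CPM in those of CD8+CD127+PD-1- cells, lowest in replicate 2 of both. The cell cycle genes summed to 466, 546 and 625 CPM and 692, 595 and 1702 CPM in the same libraries, and the plasmacytoid dendritic cell markers to 2143, 1066 and 1369 CPM and 1675, 836 and 931 CPM. Replicate 2 thus held the least of the effector factors and of the plasmacytoid dendritic cell markers in both groups, and their part in its higher level of the 10 factors was not tested. In CD8+CD127-PD-1+ cells replicate 1 lay below for 7 factors (median -0.14) and replicate 3 above for 7 (median 0.15). In CD4+CD127-PD-1+ cells each library was above the mean for 5 factors and below for 5, and Bach2 and Myb differed most between the 2 libraries, in opposite directions.

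**Figure D3:**
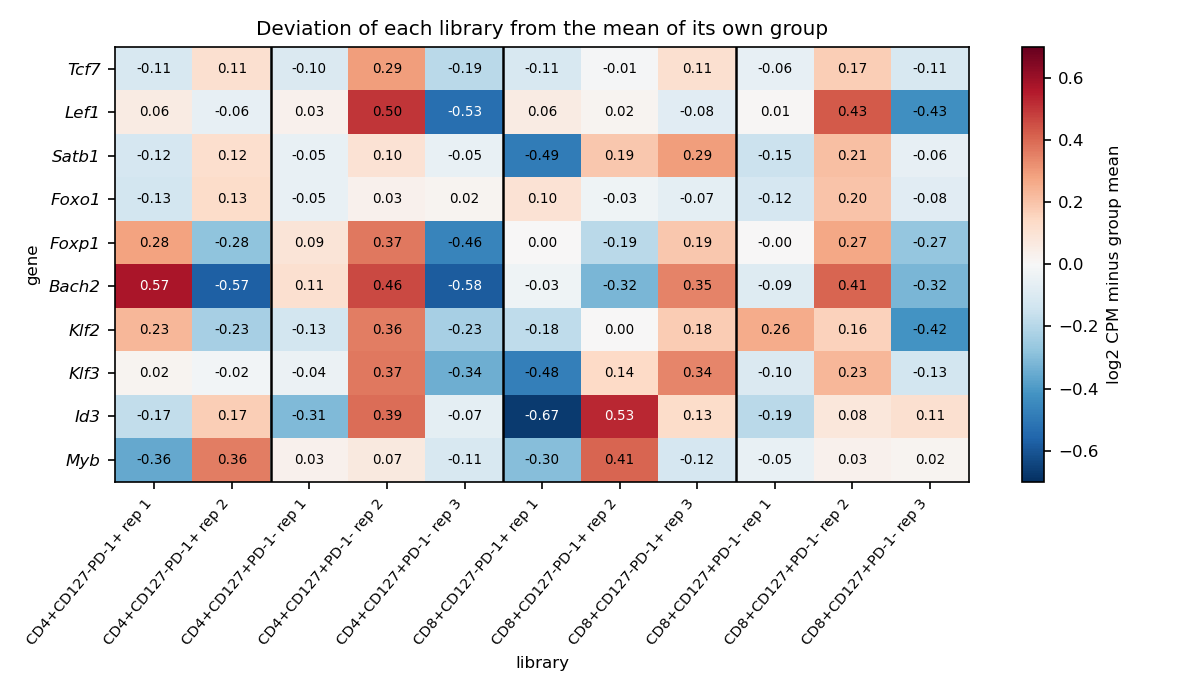
Log2 CPM of each factor in each library minus the mean of its own group (red above, blue below; vertical lines divide the groups). The second library of CD4+CD127+PD-1- and of CD8+CD127+PD-1- cells is above 0 for all 10 genes, with median deviations of 0.36 and 0.21.

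Most relatives of the 10 factors were not called. Of 30 paralogs of the same families 23 were tested. In CD4 cells CD127-PD-1+ libraries had 4 of them lower and 1 higher, and in CD8 cells 2 lower and 2 higher, with median log2 fold changes of -0.08 and 0.16. Of all genes tested, 4.87% were called lower and 6.81% higher in CD4 cells and 6.56% and 9.05% in CD8 cells, so the CD8 counts are near the background. The paralogs called lower belong to the Krüppel-like family. Klf7 was lower in CD127-PD-1+ cells of both lineages (-0.96 in CD4 cells, SE 0.15, adjusted p = 0.00253; -0.64 in CD8 cells, SE 0.13, adjusted p = 0.00648), as was Klf13 (-0.59, adjusted p = 0.00901, and -0.41, adjusted p = 0.0207). Klf6 and Klf11 were called lower in CD4 cells (-0.49 and -0.52, adjusted p = 0.0224 and 0.0465) with -0.21 and -0.27 in CD8 cells (adjusted p = 0.204 and 0.215). Mybl2, the MYB relative that works in dividing cells, was higher in CD127-PD-1+ cells, at 2.82 in CD4 (SE 0.562, adjusted p = 0.00889) and 1.65 in CD8 cells (SE 0.464, adjusted p = 0.032), and Bach1 in CD8 cells, at 0.57 (SE 0.142, adjusted p = 0.019), with 0.42 in CD4 cells (adjusted p = 0.118). The remaining paralogs of at least 3 on the average log2 CPM scale, Tcf7l2, Foxo3, Foxo4, Foxp3, Foxp4, Klf4, Klf10 and Id2, were not called in either lineage.

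Ratios of a paralog to its relative among the 10 were taken in each library. Per kilobase, Id2 exceeded Id3 by 38.0 to 40.1 times in CD4+CD127-PD-1+ libraries and by 3.74 to 9.5 times in CD4+CD127+PD-1- libraries, and by 14.4 to 40.3 times in CD8+CD127-PD-1+ libraries against 3.46 to 5.54 times in CD8+CD127+PD-1- libraries. Id2 itself, the ID protein of effector cells, had a log2 fold change of 0.48 in CD4 cells (SE 0.272, adjusted p = 0.305) and of 0.46 in CD8 cells (SE 0.246, adjusted p = 0.243). Bach1 stood at 1.18 to 2.37 times Bach2 in CD4+CD127-PD-1+ libraries and at 0.271 to 0.524 times in CD4+CD127+PD-1- libraries, and at 1.23 to 1.93 times in CD8+CD127-PD-1+ libraries against 0.345 to 0.535 times in CD8+CD127+PD-1- libraries. Mybl2 reached 0.562 to 0.569 times Myb in CD4+CD127-PD-1+ libraries against 0.027 to 0.13 times in CD4+CD127+PD-1- libraries, although Myb itself was not called there. Foxo3 stood at 0.512 to 0.75 times Foxo1 in CD4+CD127-PD-1+ libraries against 0.241 to 0.355 times in CD4+CD127+PD-1- libraries. For these 4 ratios, and for Foxp4 to Foxp1 and Klf6 to Klf2, the 2 states did not overlap in either lineage. The denominators, apart from Myb in CD4 cells, lay apart on their own, so these ratios partly restate those changes. No p is given for the ratios: an exact two-sided permutation test could not go below 0.2 with 2 libraries against 3, or 0.1 with 3 against 3. Per kilobase, Tcf7 made up 82.8% ± 3.97 (SD, n = 2) of the TCF/LEF family in CD4+CD127-PD-1+ libraries. Its share was 80.2% ± 3.07 (SD, n = 3) for CD4+CD127+PD-1-. For CD8+CD127-PD-1+ it was 82.7% ± 1.14, against 81.2% ± 3.0 for CD8+CD127+PD-1- (SD, n = 3 each). The differences stayed below the larger SD of each lineage. Lef1 had a smaller share in the CD127-PD-1+ state, 13.4% ± 1.54 against 18.5% ± 2.96 for CD4 and 11.9% ± 1.35 against 17.9% ± 2.89 for CD8. Tcf7l2 had a larger one, 3.58% ± 2.49 against 1.14% ± 0.491 for CD4 and 4.94% ± 1.12 against 0.816% ± 0.471 for CD8. For CD4 this difference also stayed below the larger SD. Tcf7l2 itself averaged 14 CPM in CD4+CD127-PD-1+ against 17.6 CPM in CD4+CD127+PD-1- libraries. In CD8 cells it averaged 20.4 CPM in CD127-PD-1+ against 14 CPM in CD127+PD-1- libraries, and it was called in neither lineage. Ratios of Tcf7 to Lef1 lay apart for CD8, at 6.2 to 7.93 against 3.84 to 5.72, and overlapped for CD4.

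**Figure D4:**
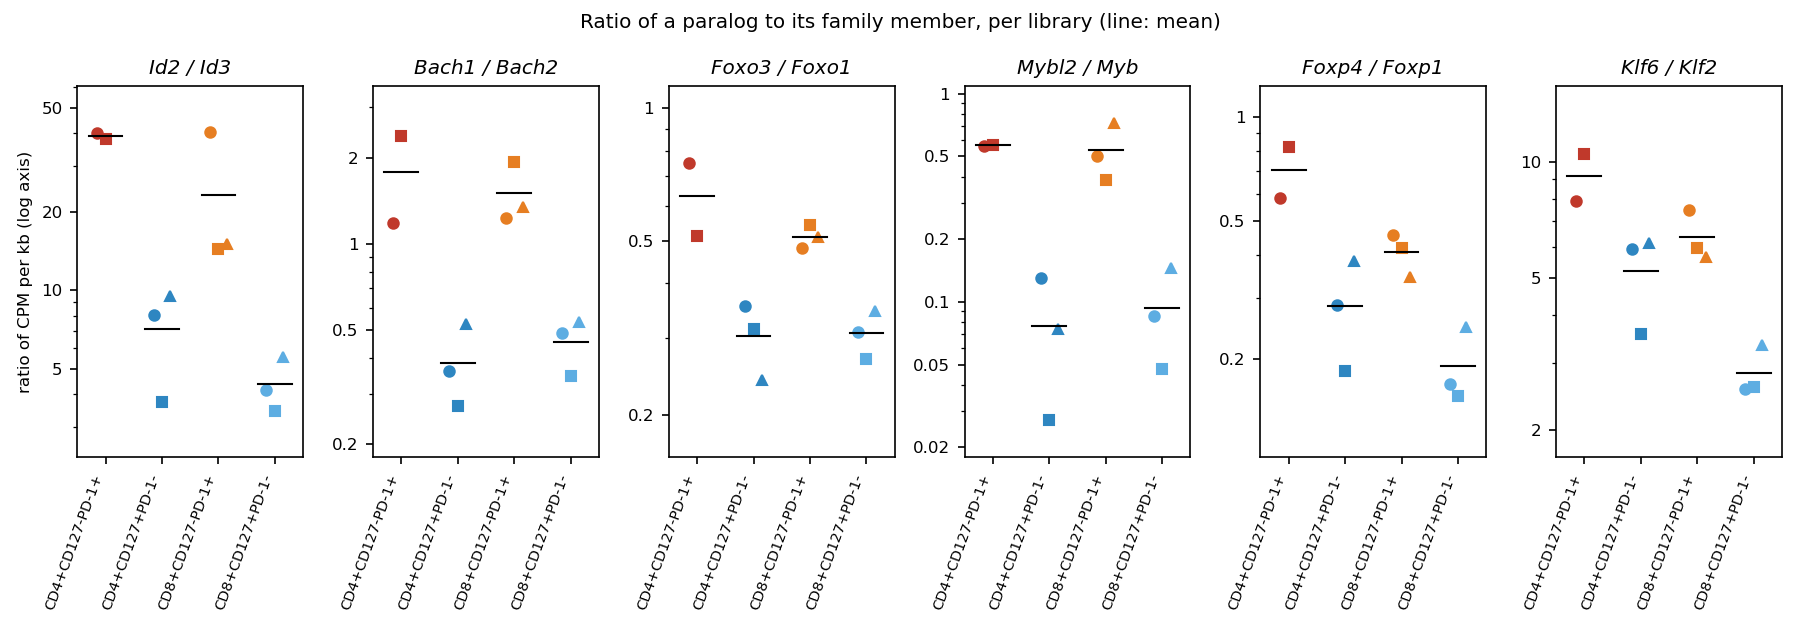
Ratio of a paralog to its relative among the 10 factors, in CPM per kilobase of exon sequence (log axes), in each library; circles, squares and triangles are replicates 1, 2 and 3 and lines are group means. In each of the 6 panels the CD127-PD-1+ libraries (left of each pair) lie above the CD127+PD-1- libraries of the same lineage, as for Id2 to Id3 with 38.0 to 40.1 against 3.74 to 9.5 in CD4 cells.

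Genes that mark naive and memory T cells, several of them known targets of these factors, were mostly called lower too. Of 20 such genes 14 were lower and 0 higher in the CD127-PD-1+ state of CD4 cells (median log2 fold change -2.19), and 15 lower and 0 higher in that of CD8 cells (median -1.55). The shares over all genes tested were 4.87% lower and 6.81% higher in CD4 cells, and 6.56% and 9.05% in CD8 cells. Il7r, a FOXO1 target and itself a sort marker, had log2 fold changes of -4.17 in CD4 and -4.51 in CD8 cells. Txk, a TEC-family kinase of resting T cells, averaged 126 CPM in CD4+CD127-PD-1+ libraries, against 367 CPM in CD4+CD127+PD-1- libraries (log2 fold change -1.54, SE 0.131, adjusted p = 0.000122), and 158 CPM in CD8+CD127-PD-1+ against 475 CPM in CD8+CD127+PD-1- libraries (-1.59, SE 0.114, adjusted p = 2.3e-05). Actn1, which encodes an actin crosslinker, changed by -3.09 in CD4 cells (SE 0.295, adjusted p = 0.000172) and by -2.04 in CD8 cells (SE 0.235, adjusted p = 0.000276). S1pr1, the KLF2 target for egress from tissue, changed by -1.91 in CD4 and -1.45 in CD8 cells (adjusted p = 0.000352 and 0.000394), and Igfbp4 by -3.69 and -3.64 (adjusted p = 0.000365 and 0.000127). The list shares Ccr9 with the plasmacytoid dendritic cell markers.

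Regulators of quiescence outside the 10 were called in part. Of 19 tested, the CD127-PD-1+ state had 7 lower and 0 higher in CD4 cells, and 7 lower and 1 higher in CD8 cells, with medians of -0.36 and -0.29 on the log2 scale. Among all genes tested, 4.87% were called lower and 6.81% higher in CD4 cells, and 6.56% and 9.05% in CD8 cells. Pik3ip1, an inhibitor of PI3-kinase, had 7.7 CPM in CD4+CD127-PD-1+ libraries, against 38.7 CPM in CD4+CD127+PD-1- libraries (-2.33, SE 0.243, adjusted p = 0.0003) and 10.3 CPM in CD8+CD127-PD-1+ against 51.6 CPM in CD8+CD127+PD-1- libraries (-2.32, SE 0.206, adjusted p = 7.66e-05). Zeb1, a zinc finger repressor, changed by -1.07 and -0.99 in CD4 and CD8 cells (adjusted p = 0.000497 and 0.000202), and Tsc22d3, which encodes GILZ, by -1.39 and -1.15 (adjusted p = 0.000822 and 0.000617). Nr1d2, a repressor of the circadian clock, was lower at -0.96 in CD4 and -0.62 in CD8 cells (adjusted p = 0.00805 and 0.0266), and Peli1, a ubiquitin ligase that limits T cell activation, in CD8 cells at -1.06 (adjusted p = 0.000672), with -0.51 in CD4 cells (adjusted p = 0.0657). Runx1 was the 1 gene called higher, by 0.78 in CD8+CD127-PD-1+ cells (SE 0.107, adjusted p = 0.00073).

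Partners and cofactors of the 10 were mixed. Of 18, the CD127-PD-1+ state had 4 lower and 1 higher in CD4 cells, and 4 lower and 3 higher in CD8 cells, with medians of -0.01 and -0.09. Of all genes tested, 4.87% were called lower and 6.81% higher in CD4 cells, and 6.56% and 9.05% in CD8 cells. Maff and Mafk, small MAF partners of BACH2, were lower in CD4 cells (-1.39 and -0.73, adjusted p = 0.00583 and 0.00849) and in CD8 cells (-1.32 and -0.43, adjusted p = 0.00225 and 0.0395). The other small MAF of the list, Mafg, stood the other way. It averaged 24 CPM in CD4+CD127-PD-1+ against 16.9 CPM in CD4+CD127+PD-1- libraries. In CD8 cells it averaged 16.1 CPM in CD127-PD-1+ against 11 CPM in CD127+PD-1- libraries. Tcf12, one of the E proteins that ID3 captures, changed by -0.43 in CD4 (adjusted p = 0.0246) and -0.63 in CD8 cells (adjusted p = 0.00117), and Axin2, a common read-out of beta-catenin with TCF, by -1.15 in CD8 cells (adjusted p = 0.0045), with -0.75 in CD4 cells (adjusted p = 0.0638). Ctbp2, a corepressor that KLF3 recruits, was higher in CD127-PD-1+ cells, by 1.98 (adjusted p = 0.0134) in CD4 and 2.17 (adjusted p = 0.00347) in CD8 cells, at 7.91 CPM in CD4+CD127-PD-1+ against 2.0 CPM in CD4+CD127+PD-1- libraries. Tcf3, the gene of another E protein, averaged 23.8 CPM in CD4+CD127-PD-1+ against 16.6 CPM in CD4+CD127+PD-1- libraries, and 24.7 CPM in both CD8 groups. The list shares Tcf4 with the plasmacytoid dendritic cell markers.

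Some factors of effector and chronically stimulated T cells were higher in CD127-PD-1+ cells. Of 20, each lineage had 8 called up and 0 down in its CD127-PD-1+ state, with median log2 fold changes of 0.69 in CD4 and 0.48 in CD8 cells. The shares called over all genes tested were 6.81% higher and 4.87% lower in CD4 cells, and 9.05% and 6.56% in CD8 cells. Maf was higher by 1.39 in CD4 cells (SE 0.169, adjusted p = 0.000621) and by 2.51 in CD8 cells (SE 0.169, adjusted p = 1.95e-05), Nfatc1 by 1.06 and 0.74 (adjusted p = 0.000641 and 0.00165), and Tox2 by 2.73 and 3.61 (adjusted p = 0.00738 and 0.00237). Ikzf3, the gene of AIOLOS, was higher in CD4 cells by 0.96 (adjusted p = 0.00468), with 0.49 in CD8 cells (adjusted p = 0.0501). Prdm1 encodes BLIMP-1, which BACH2 represses; it was higher in CD8 cells by 1.45 (SE 0.238, adjusted p = 0.00204), with 0.83 in CD4 cells (adjusted p = 0.0579). Per kilobase, Prdm1 stood at 4.35 to 11.5 times Bach2 in CD4+CD127-PD-1+ libraries and 0.703 to 2.11 times in CD4+CD127+PD-1- libraries, and at 2.69 to 5.53 times in CD8+CD127-PD-1+ libraries against 0.375 to 1.11 times in CD8+CD127+PD-1- libraries. Not every member stood higher: Irf8 averaged 44.5 CPM in CD4+CD127-PD-1+ libraries against 124 CPM in CD4+CD127+PD-1- libraries, and Nr4a1 190 against 248 CPM, neither of them called. The list shares Irf8 with the plasmacytoid dendritic cell markers and Id2 with the paralogs.

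Genes of these lists also differed between the lineages. Axin2 was higher in CD4 than in CD8 cells within CD127-PD-1+ cells (log2 fold change 1.28, adjusted p = 0.0147) and within CD127+PD-1- cells (0.88, adjusted p = 0.035). So was Runx1, by 0.58 (adjusted p = 0.0244) and 1.11 (adjusted p = 0.000175), and Maf, by 2.41 (adjusted p = 3.08e-05) and 3.52 (adjusted p = 1.41e-06). Eomes, a T-box factor of CD8 memory cells, was lower in CD4 cells, with log2 fold changes of -5.05 (adjusted p = 9.55e-05) and -5.50 (adjusted p = 1.87e-05). Among the naive and memory marker genes, Dapl1 (-3.91, adjusted p = 0.00643) and Actn1 (-1.65, adjusted p = 0.0103) were lower in CD4 cells within CD127-PD-1+ cells, and Ly6c2 (-2.17, adjusted p = 0.00282) and Cxcr5 (-1.77, adjusted p = 0.00838) within CD127+PD-1- cells. Nr1d2 was higher in CD4 cells within CD127+PD-1- cells (0.83, adjusted p = 0.0127). Foxp3, the FOXP relative that defines regulatory T cells, was higher in CD4 cells by 6.09 and 5.29 (adjusted p = 1.12e-05 and 8.20e-06), and among the FOXP genes per kilobase Foxp1 made up 28.5% ± 6.24 (SD, n = 2) in CD4+CD127-PD-1+ cells, against 70.1% ± 2.95 (SD, n = 3) in CD8+CD127-PD-1+ cells.

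Most entries annotated inside the loci and on the strand of the host gene, listed as genes of their own in the table, were called lower. The annotation places 15 such entries on the same strand and 7 on the opposite strand within 8 of the 10 loci, and none over Klf2 or Id3. Of the 13 same-strand entries tested, 10 were called lower in CD4+CD127-PD-1+ cells and 10 in CD8+CD127-PD-1+ cells, with 0 called higher. Of the 6 opposite-strand entries tested, 2 were called lower in CD4 cells and 3 in CD8 cells, again with 0 called higher. Of all genes tested, 4.87% were called lower in CD4 cells and 6.56% in CD8 cells. Inside Satb1, Gm37248 changed by -2.42 in CD4 (SE 0.213, adjusted p = 0.000122) and -2.42 in CD8 cells (SE 0.183, adjusted p = 2.94e-05), and C230085N15Rik by -2.97 and -3.11. Gm26551 inside Tcf7 changed by -2.16 and -2.13, RP24-176P19.6 inside Lef1 by -2.96 and -3.19, Bach2it1 inside Bach2 by -2.26 and -1.25, and RP23-326O2.2 inside Klf3 by -1.23 and -1.21. These 6 entries share no exon base with the gene around them. Gm38034 inside Foxo1 was not called (-0.55 in CD4 cells, adjusted p = 0.141; -0.62 in CD8 cells, adjusted p = 0.0527), nor was Gm20705 inside Foxp1. Gm20696, which shares 300 exon bases with Foxp1, changed by -2.05 and -1.46. The sources used here do not state the strand setting of the counting, so reads of a gene and of an entry on the opposite strand cannot be told apart. On the same strand, reads of an unspliced host transcript cannot be told apart from reads of an entry in its introns.

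**Figure D5:**
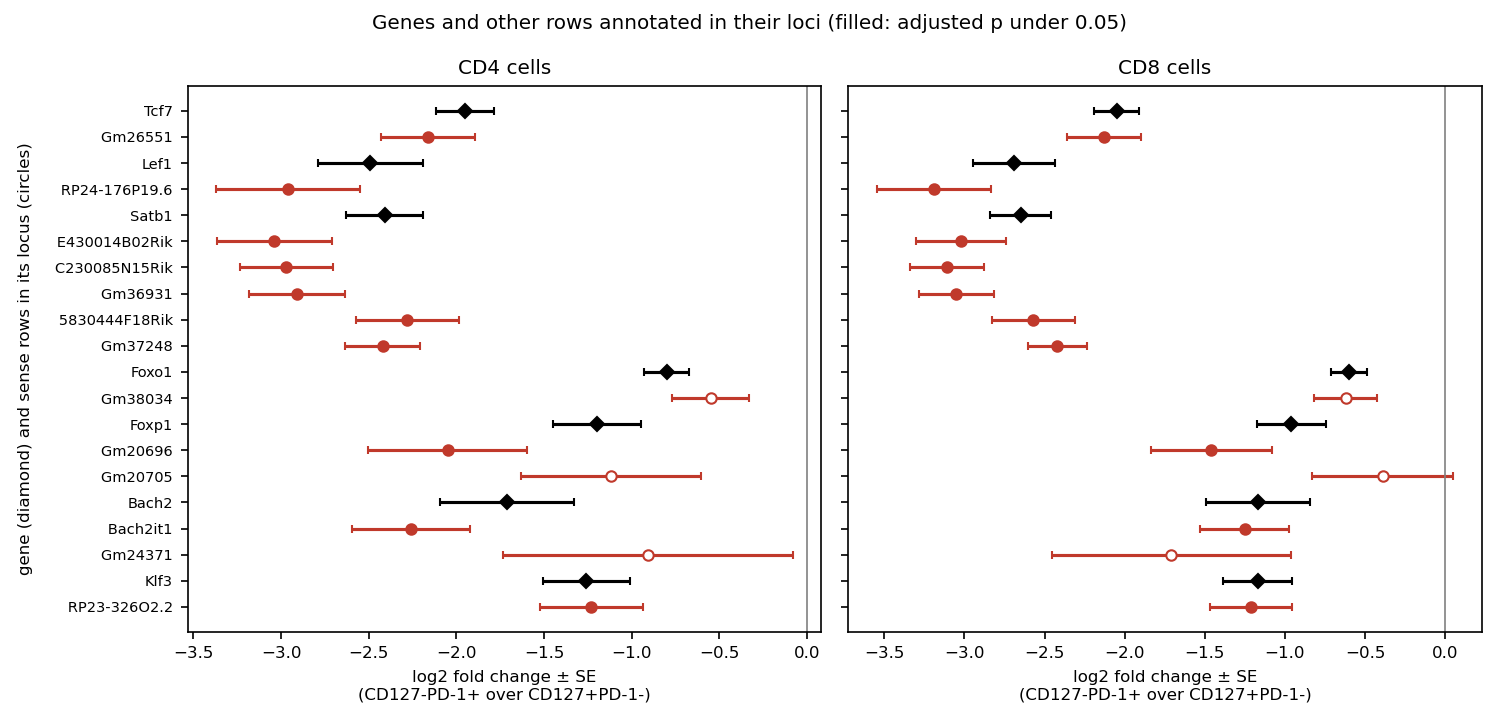
Log2 fold changes with standard errors (CD127-PD-1+ over CD127+PD-1-) of 7 of the factors (black diamonds) and of the same-strand entries annotated within each locus (red circles); filled symbols passed an adjusted p of 0.05. In each panel 10 of the 13 circles are filled, all below 0, and the open circles lie at the Foxo1 locus and at entries of Foxp1 and Bach2.

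The genes whose pattern over the 11 libraries was most like each factor were found by the root mean square difference of mean-centred log2 CPM. The search covered genes of at least 4 on the average log2 CPM scale. Genes named Gm plus digits or Rik, pseudogenes, antigen receptor segments and the factors themselves were left out. All entries inside Satb1 carry such names and could not appear, whereas RP24-176P19.6 and RP23-326O2.2 are named otherwise in the count table. Nearest to Tcf7 were Tnfrsf26 (0.23), F2rl1 (0.26) and Pik3ip1 (0.27), and nearest to Lef1 were Pdk1 (0.26), RP24-176P19.6 from within its own locus (0.28) and Pik3ip1 (0.30). Closest to Satb1 were Dirc2 (0.38), St8sia1 (0.39) and Rapgef4 (0.48). The nearest to Foxo1 were Phf20l1 (0.10), Usp53 (0.11) and Ppp1r13b (0.11), and to Foxp1 Arhgef18 (0.15), Snord22 (0.15) and Il6st (0.18). Bach2 had Aff3 (0.23), Tcp11l2 (0.27) and Bcl2 (0.29), and Klf2 had Tsc22d3 (0.16), RP23-326O2.2 (0.17) and Aff3 (0.20). Klf3 was closest to RP23-326O2.2 from within its own locus (0.16), Klhdc2 (0.20) and Tsc22d3 (0.21), and Id3 to Rab3ip (0.30), Cmah (0.35) and Gramd4 (0.36). For Myb the nearest genes, Slc16a1 (0.16), Rps26 (0.24) and Dnajc15 (0.26), had log2 fold changes of -0.16, -0.36 and -0.08 in CD4 cells and -0.79, -0.74 and -0.58 in CD8 cells. The same 3 genes per factor were found with a prior count of 0.5 in place of 2. Among the factors themselves, Foxp1 (0.26) was nearer to Bach2 than Tcp11l2 and Bcl2 were. Lef1 (0.39) was nearer to Satb1 than Rapgef4 was.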

How the data were processed

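The deposited table holds raw read counts per gene, which the authors made with STAR, featureCounts and the build GRCm38 per the submitters' processing notes; the sources used here do not give versions, annotation release or strand setting. Per the labels' protocols, 2 ng of total RNA was amplified by single primer isothermal amplification and read as 75-base single reads. Because 3 mice were pooled per library, p-values measure the spread between pools. The 11 labelled columns were used and 1 further column was not. Totals were 10572505 to 16057310 counts per library, so counting error is small except for genes with few reads in a group, such as Dapl1, Tox2, Mybl2, Eomes in CD4 cells and Id3.

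The model was fitted by edgeR 4.0.16 under R 4.3.3 (filterByExpr, 16365 genes; TMM; quasi-likelihood fit of 4 group means; contrasts for 2 state comparisons, 2 lineage comparisons and their difference; Benjamini-Hochberg, 0.05). SE is the absolute log2 fold change divided by the square root of F. Dispersion corresponded to a common biological coefficient of variation of 0.244. The state comparisons were also run on simulated counts with the same dispersion for all genes, unlike the data, and no result here rests on that run. Alternatives were DESeq2 1.42.0, limma-voom 3.58.1, RLE size factors, no filter beyond 1 count in total, mitochondrial rRNA left out, a prior count of 0.5, the compared groups only, a replicate block and leaving out each library. Gene spans, exon lengths and overlaps came from GENCODE M21 (GRCm38), which held 45143 of the 46078 identifiers; motif windows came from RefSeq.

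The 10 factors, the gene lists and the tests were chosen with earlier results of these data known. All 10 were named in every comparison. Of each list the called genes with the 4 smallest p per state comparison and the 2 smallest per lineage comparison were named, and among the paralogs those of at least 3 on the average log2 CPM scale; values of a named gene in the other lineage are given beside it, and Prdm1 over Bach2 and Runx1 in CD8 cells were chosen after their values were seen. Most-like genes were the 3 nearest per factor among the genes searched. Replicate numbers stand in the titles and, differently, in the descriptions, and no label says that either marks a shared pool. Of the group pairs with 3 same-numbered pairs of libraries, only the CD4 and CD8 libraries of CD127+PD-1- cells, paired alike by both numberings, correlated above 0.1 in every pair; the model has no block.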

Additional observations from a re-analysis of the deposited data

How the results depend on the processing

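No alternative other than leaving out a library ended a state call of the 10 factors. Leaving out 1 library at a time kept 6 to 9 of them called lower in CD4 cells and 7 to 10 in CD8 cells, while the counts over all genes ran from 554 (without CD4+CD127-PD-1+ replicate 1) to 1261 higher and from 374 (without replicate 2 of it) to 790 lower in CD4 cells, and from 861 to 1572 higher and 614 to 1127 lower in CD8 cells (both lowest without CD8+CD127-PD-1+ replicate 3). Within CD127-PD-1+ cells they ran from 96 to 282 higher and 30 to 161 lower (lowest without CD4+CD127-PD-1+ replicate 2), within CD127+PD-1- cells from 235 to 460 higher and 140 to 313 lower with 1 to 2 factors lower, and for the difference of state changes from 0 to 2 higher and 0 to 4 lower. A count over all genes fell by over 1.5 times on leaving out either CD4+CD127-PD-1+ library or CD4+CD127+PD-1- replicate 1 or 2 for CD4 cells, CD8+CD127-PD-1+ replicate 2 or 3 or CD8+CD127+PD-1- replicate 2 for CD8 cells, CD4+CD127-PD-1+ replicate 2 or CD8+CD127-PD-1+ replicate 2 or 3 within CD127-PD-1+ cells, and CD4+CD127+PD-1- replicate 1 or 3 or CD8+CD127+PD-1- replicate 1 within CD127+PD-1- cells. The 9 called values in CD4 and 10 in CD8 cells kept their sign in all 19 alternatives.

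Within CD127-PD-1+ cells DESeq2 called 425 genes higher and 292 lower, no filter 443 and 348, and the compared groups alone 143 and 71; with no filter 1 factor, Satb1, was called higher (0.57, adjusted p = 0.0376). Within CD127+PD-1- cells DESeq2 called 527 lower and no filter 578; DESeq2 called 2 factors lower (Klf2 with Myb) and no filter 3 (Klf3 too), and leaving out CD8+CD127+PD-1- replicate 3 called 2 (Klf2 with Myb). For the difference of state changes DESeq2 called 20 higher and 40 lower, and no filter 27 and 58. The cause was not tested.

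Same-numbered libraries correlated at -0.209 to 0.318 in 15 pairs by title number, 7 of them above 0.1. By description number they correlated at 0.00109 to 0.325 in 12 pairs, 10 of them above 0.1. No label says that either number marks a shared pool, so pairing is not established for the design as a whole. The 3 CD4 and CD8 pairs within CD127+PD-1- cells were all above 0.1 (0.208, 0.147 and 0.318). With the title number as a replicate block 1156 genes were called higher and 849 lower in CD4 cells and 1658 and 1117 in CD8 cells; with the description number 1280 and 884, and 1274 and 793. Both kept 9 and 10 factors lower. The description block called 436 genes and 2 factors (Klf2 with Myb) lower within CD127+PD-1- cells, and 0 higher and 1 lower for the difference of state changes, where the title block called 0 higher. Under the title block Lef1 was -0.05 between lineages in CD127-PD-1+ cells and Klf2 -0.03 for the difference of state changes; under the description block Lef1 was -0.08, Bach2 -0.00 in CD127+PD-1- cells and Lef1 -0.00 for the difference.

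The other sign changes came on leaving out 1 library, in values that were not called. Myb in CD4 cells ran from -0.46 (without CD4+CD127-PD-1+ replicate 2) to 0.26 (without replicate 1). Between lineages in CD127-PD-1+ cells Tcf7 ran from -0.16 to 0.07 and Foxo1 from -0.04 to 0.24, and in CD127+PD-1- cells Lef1 from -0.35 to 0.17 and Bach2 from -0.23 to 0.26. For the difference of state changes Tcf7 ran from -0.01 to 0.26, Lef1 from -0.04 to 0.48, Foxp1 from -0.54 to 0.02, Klf2 from -0.18 to 0.29 and Klf3 from -0.29 to 0.12. A fit without 1 of the 2 CD4+CD127-PD-1+ libraries assumes that the other varies like the remaining groups. Depth limits genes with few reads, such as Dapl1, Tox2, Mybl2, Eomes in CD4 cells and Id3.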
